A study of Mus musculus with 112 samples.

Results

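Reduced representation bisulfite sequencing (RRBS) of mouse sperm and brain gave 471 short regions that were methylated in the sperm of unexposed wild type (WT) males and unmethylated in the brain of F1 sons of unexposed WT males. They were 471 of 69884 autosomal regions, or 0.674%. Bisulfite treatment converts unmethylated cytosines so that sequencing reads them as thymine, and RRBS limits this readout to fragments cut by restriction enzymes. DNA methylation (DNAme) is given here as the percent of reads that were methylated at a CpG. CpG positions with 4 or more library values in both the control WT F0 sperm table and the control WT F1 brain table were joined when they lay at most 100 bp apart. Regions of 3 or more positions spanning over 50 bp were kept, and those with a mean above 80% in that sperm group and below 20% in that brain group are the members described here. These 2 groups therefore chose the members, and their own levels are a description with no test.

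The study asked how paternal cigarette smoke (CS) and loss of Nrf2, the transcription factor that drives the antioxidant response, affect sperm DNAme and sons. F0 males were C57BL/6J WT or Nrf2-/- mice on that background, 6 to 7 weeks old when 60 days of machine-generated CS began, and sperm was collected within 3 days of its end. The F0 sperm groups were control WT (10 libraries), smoked WT (9), control Nrf2-/- (10) and smoked Nrf2-/- (9). The other smoked WT groups, called recovery 1 (9), recovery 2 (10) and recovery 3 (10), were sampled later, from 28 to 171 days after exposure, and so were also older. All F1 sons came from unexposed CAST/EiJ mothers, so the sons of every group were strain hybrids, while every F0 male was inbred. F1 sperm was measured in sons of control (6) and smoked (7) WT sires, and F1 brain, sampled as prefrontal cortex, in sons of WT sires and of Nrf2-/- sires, each either control or smoked (8 in each of these groups). Sons were 14 to 17 weeks old. Sons of Nrf2-/- sires had mothers that were not Nrf2-/-, so these sons were not homozygous for the deletion. One control WT F1 brain sample carries a strain label that differs from its title and was grouped by its title.

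Methylation of a CpG is copied at each cell division by the maintenance methyltransferase and can be lost where transcription factors bind, so most CpGs outside CpG islands are methylated in both sperm and somatic cells. Sperm DNA is packed mainly with protamines and its genome is highly methylated outside CpG-rich promoters. Stretches of low DNAme within otherwise methylated introns and intergenic DNA are a known feature of enhancers in differentiated tissue.

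The sequences of 8 members are shown with every CpG in capitals. Each runs from the first to the last position, so its CpG density is not that of the wider 300 bp window described below. They were read from the mm10 forward strand with 10 bp added on each side. The first 4 are among the members with the widest gaps in mean DNAme between the groups that chose them, lie outside promoters and exons and were measured in all 13 groups. Trio (chr15:27937878-27938003) encodes a guanine nucleotide exchange factor of axon guidance, and Pitpnm2 (chr5:124185493-124185598) encodes a phosphatidylinositol transfer protein. Mfsd4a (chr1:132046488-132046562) encodes a membrane transporter, and the region nearest to Mki67 (chr7:135837120-135837208) lies 120803 bp from the start of that gene. Clk3 (chr9:57762663-57762796) encodes a kinase of splicing factors and is shown because it differed between smoked genotypes. Rbfox1 (chr16:6839789-6839933) encodes a neuronal splicing factor, Slc4a4 (chr5:89088499-89088638) a bicarbonate transporter of astrocytes, and Bcl11b (chr12:107935055-107935146) a transcription factor of deep-layer cortical neurons. All but the one nearest to Mki67, which is intergenic, are in introns.
Trio: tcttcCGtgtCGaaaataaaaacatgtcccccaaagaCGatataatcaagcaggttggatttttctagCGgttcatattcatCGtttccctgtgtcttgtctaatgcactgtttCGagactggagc
Mki67: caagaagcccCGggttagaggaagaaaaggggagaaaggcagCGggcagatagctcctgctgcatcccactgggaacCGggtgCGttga
Pitpnm2: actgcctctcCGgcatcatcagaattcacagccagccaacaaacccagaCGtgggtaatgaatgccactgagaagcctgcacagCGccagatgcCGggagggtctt
Mfsd4a: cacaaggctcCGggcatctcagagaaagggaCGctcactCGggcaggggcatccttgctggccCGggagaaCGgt
Clk3: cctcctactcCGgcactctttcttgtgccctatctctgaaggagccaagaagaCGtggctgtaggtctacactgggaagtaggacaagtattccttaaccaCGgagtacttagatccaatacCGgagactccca
Rbfox1: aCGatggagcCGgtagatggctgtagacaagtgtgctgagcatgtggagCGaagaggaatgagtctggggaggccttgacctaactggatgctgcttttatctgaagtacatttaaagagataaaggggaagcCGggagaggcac
Slc4a4: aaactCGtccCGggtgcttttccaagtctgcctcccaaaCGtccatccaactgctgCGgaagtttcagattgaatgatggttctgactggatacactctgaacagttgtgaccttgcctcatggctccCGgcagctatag
Bcl11b: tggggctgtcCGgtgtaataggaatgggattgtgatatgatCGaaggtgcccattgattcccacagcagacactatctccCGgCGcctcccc

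Members were poor in CpGs. In the 300 bp window on each region's centre, the median member held 7 CpGs (quartiles 6 and 9), against 10 over all regions and 6 over the 17713 regions methylated in both tissues. Median GC content was 51.3% in members, 53.7% over all regions and 48.3% in those methylated in both. The ratio of observed to expected CpGs had a median of 0.370 in members, 0.5 over all regions and 0.391 in those methylated in both. Only 5 members (1.06%) had a window like a CpG island, meaning GC above 50% and a ratio above 0.6, against 31.3% of all regions and 3.97% of those methylated in both. A member held a median of 4 positions (3 to 18) and spanned a median of 99 bp (52 to 351). Because both strands of a CpG count as positions, these were a median of 4 distinct CpGs (2 to 16), and 4 members rested on 2 CpGs. Bmp7, which encodes a bone morphogenetic protein, had the member with most positions, 18 of them at 16 CpGs of an intron. Soft-masked repeat sequence filled over 50% of the region itself, and not of the window, in 2.34% of members. The shares were 7.65% of all regions and 15.9% of those methylated in both.

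Most members were intronic. Of the 471, 283 (60.1%) lay in introns, 96 (20.4%) were intergenic, 47 (9.98%) lay within 1 kb of an annotated transcript start, 32 (6.79%) in coding exons and 13 (2.76%) in other exons. Over all regions the shares were 25.6% in introns, 25.1% intergenic, 35.1% near starts and 11.8% in coding exons. Among regions methylated in both tissues they were 39.3%, 34.0%, 3.68% and 20.3%. Members were therefore more often intronic and less often in coding exons than either background set in these counts. Protein-coding genes overlapped 72.8% of members, against 63.7% of all regions and 59.1% of those methylated in both. The median distance to a protein-coding start was 21181 bp, against 10306 bp over all regions and 33476 bp for regions methylated in both.

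Motifs of several factor families were counted in the same 300 bp windows on both strands. The AP-1 motif TGANTCA, bound by Fos and Jun dimers, was in 72 members (15.3%), against 7.33% of regions methylated in both tissues and 6.30% of all regions. The E-box CAGATG, bound by proneural bHLH factors such as the NeuroD family, was in 30.1% of members, 21.5% of those methylated in both and 18.1% of all. The general E-box CANNTG, which includes it, was in 84.9%, 80.2% and 72.9%. The nuclear factor I half-site TTGGC was in 49.9%, 39.2% and 41.9%. The antioxidant response element core TGACNNNGC was in 14.6%, 10.8% and 11.9%, and the nuclear receptor half-site AGGTCA in 19.5%, 19.3% and 15.2%. The SOX core ACAAT was in 31.8% of members, 36.1% of regions methylated in both and 27.2% of all. The GC box CCGCCC was in 11.04% of members, 5.40% of those methylated in both and 26.5% of all. The EGR1 core GCGTGGG was in 7 members (1.49%), 1.56% of regions methylated in both and 5.22% of all. The palindromic E-box CACGTG was in 36 members (7.64%), 5.19% of those methylated in both and 6.17% of all. Within introns alone, TGANTCA was in 15.2% of 283 members and 7.62% of 6955 regions methylated in both. Among intergenic regions it was in 22.9% of 96 members and 7.94% of 6029. Other motifs were also more frequent in members there, TGACNNNGC with 19.8% against 8.89% and CAGATG with 35.4% against 21.1%. In introns TTGGC was in 50.2% against 37.7% and CCGCCC in 11.7% against 4.40%. ACAAT was less frequent in members, at 31.8% against 37.1% in introns and 29.2% against 38.4% in intergenic regions. So were AGGTCA in introns (17.7% against 18.6%) and GCGTGGG in intergenic regions (0% against 1.24%). A match of this kind is a run of letters and not a binding site.

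In 31 members the AP-1 letters lay between the first and last position or within 10 bp of them. The 3 intronic or intergenic members of this kind with the widest gaps are shown with the AP-1 letters in capitals, on the mm10 forward strand. Rara (chr11:98933393-98933483) encodes a retinoic acid receptor and Srgap3 (chr6:112924940-112925047) a signalling protein of neurite growth, and both regions are intronic. The third is intergenic, 2645 bp from the start of Adssl1 (chr12:112617358-112617442), an enzyme of purine metabolism.
Rara: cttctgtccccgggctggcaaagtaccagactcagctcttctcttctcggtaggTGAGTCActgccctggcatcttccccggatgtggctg
Srgap3: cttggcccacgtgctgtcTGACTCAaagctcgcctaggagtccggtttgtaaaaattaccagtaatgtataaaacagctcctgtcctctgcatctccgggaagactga
Adssl1: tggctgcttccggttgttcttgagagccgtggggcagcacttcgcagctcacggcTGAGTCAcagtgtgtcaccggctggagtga

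Members overlapped, or lay within 5 kb of the start of, 329 of 14877 protein-coding genes that had any region (2.21%), and 110 members had no such gene. Of these genes, 20 held 2 or more. Gse1, which encodes a protein of the histone deacetylase and demethylase corepressor complexes, held 6 members among 41 regions. Tcf4, which encodes an E-box binding bHLH protein of neuronal development, held 5 among 25, and Trio 4 among 21. The members of 1 gene were usually far apart, since 14 of the 471 lay within 5 kb of another.

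Of 65 genes of synapses and neuronal excitability with a region, 9 (13.8%) had a member, against 2.21% of all genes: Ank3, Cacna1a, Camk2a, Ncam1, Nrxn2, Ntrk2, Rbfox1, Rbfox3 and Shank2. Per region, 12 of 518 (2.32%) were members against 0.674% of all regions. Astrocyte genes had members at 2 of 27 (7.41%), Aldh1l1 and Slc4a4, and oligodendrocyte genes at 1 of 22 (4.55%), Mbp, the myelin basic protein gene. Transcription factors of cortical neurons had members at 2 of 36 (5.56%), Bcl11b and Foxp1, which was 0.917% of their 327 regions. The short lists of microglia and blood lineage genes (0 of 13) and of germline and spermatogenesis genes (0 of 21) held no member, though genes outside these lists that act in those lineages, Cebpe and Piwil4, did. These lists are counts without a test, and genes with more regions had more chances to hold a member.

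Mean DNAme over members separated the sperm and brain libraries completely. The means were 91.7% ± 2.79 (SD, n = 10) in control WT F0 sperm and 12.5% ± 1.13 (SD, n = 8) in control WT F1 brain, the groups that chose the members. In groups that had no part in that choice, F0 sperm means were 90.7% in smoked WT, 90.3% in recovery 1, 91.9% in recovery 2, 92.0% in recovery 3, 89.0% in control Nrf2-/- and 88.6% in smoked Nrf2-/-. F1 sperm means were 88.1% in sons of control and 90.5% in sons of smoked WT sires. F1 brain means were 13.9% in sons of smoked WT, 14.5% in sons of control Nrf2-/- and 12.1% in sons of smoked Nrf2-/- sires. The lowest sperm library was at 79.8%, a control WT F1 sperm library with values at 62 members, and the highest brain library was at 17.5%.

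**Figure D1:**
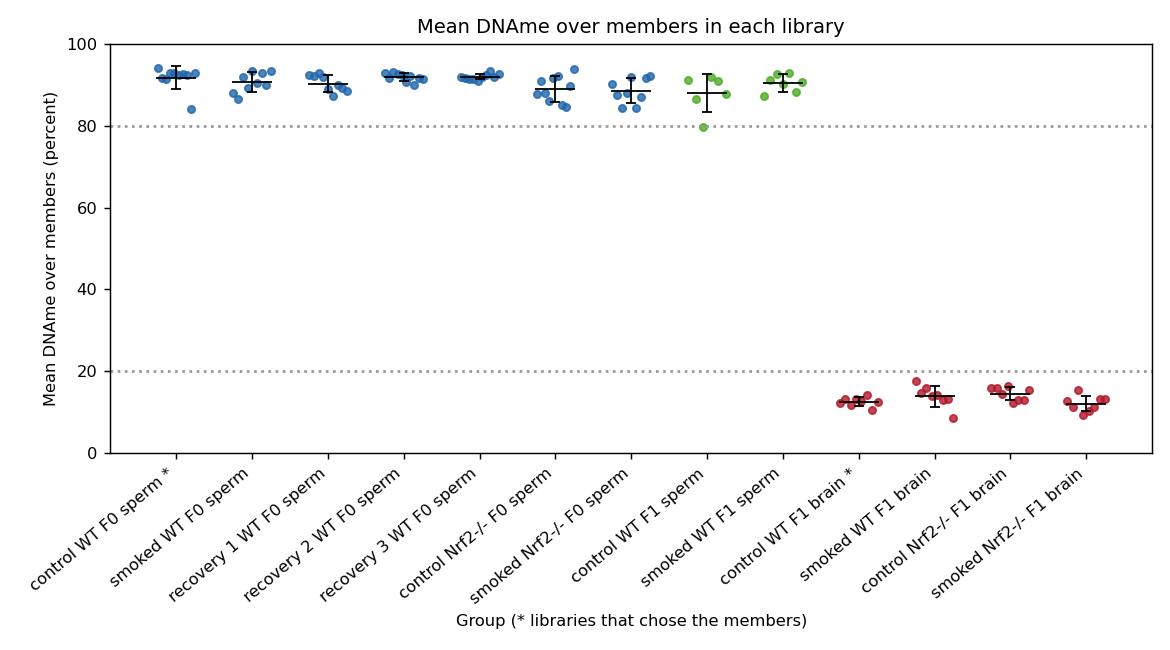
Each point is 1 library, plotted by its mean DNAme over the members it measured, in percent, with the group mean and SD in black and dotted lines at the 80% and 20% thresholds. All 80 sperm libraries lie at or above 79.8% and all 32 brain libraries at or below 17.5%.

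At promoters methylated only on the maternal allele, sperm is known to be unmethylated and somatic tissue intermediate. Regions near the starts of imprinted genes listed for such methylation were set against the tissue labels. Over 13 regions near the starts of 11 such genes, the sperm libraries with a value had means of 0 to 5.50%. All 13 regions were below 5% in control WT F0 sperm. The control WT F1 sperm library with values at 62 members had no value here, so it was not checked. In control WT F1 brain not all were intermediate, since the Grb10 and Igf2r regions had 1.05% and 3.91% and the Mest region 68.3%, while the other 10 had 20.2% to 43.8%. A region near a start need not be the maternally methylated stretch of its gene. Other regions in the same brain group had 18.9% to 37.2% at Grb10 and 31.4% to 96.3% at Igf2r. Of 4 regions near genes methylated on the paternal allele, Meg3 had 86.9% in control WT F0 sperm and 24.4% in control WT F1 brain. In F1 sperm the Meg3 region was at 60.9% and 59.6% in sons of control and smoked WT sires, below the 81.6% to 89.5% of the F0 sperm groups. The H19 region had 0.948% and 21.4%, and both Rasgrf1 regions had under 5% in each tissue. In brain, 27 libraries had means of 25.7% to 35.6%. The other 5 were lower, at 12.8% to 19.7%, and were 4 of the 8 in sons of smoked Nrf2-/- sires and 1 of the 8 in sons of smoked WT sires. The same 5 libraries had member means of 8.61% to 11.4%, against 10.4% to 17.5% in the other 27. Their means over regions methylated in both tissues were 86.3% to 89.1%, against 88.0% to 90.7%. Over regions unmethylated in both they were 2.30% to 3.44%, against 2.27% to 4.03%. Highest there were columns 3 and 4 of sons of control Nrf2-/- sires (3.86% and 4.03%) and columns 2 and 3 of sons of smoked Nrf2-/- sires (3.44% and 3.90%). The cause was not tested, and these columns were not left out for it. The tests that use brain, and the counts of members without overlap, are given below with and without the 5 libraries low at imprinted regions, while the values of single members and of their surroundings include them.

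**Figure D2:**
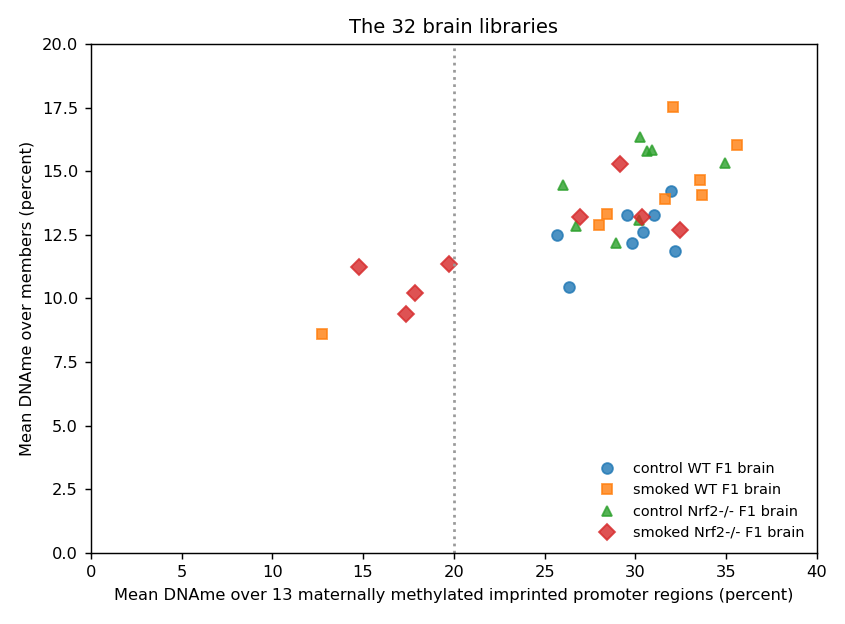
Each point is 1 of the 32 brain libraries, with a dotted line at 20%. The x axis is its mean DNAme over the 13 regions near starts of maternally methylated imprinted genes, in percent. The y axis is its mean over members, in percent. The 5 libraries left of the line have member means of 8.61% to 11.4%.

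The tissue difference was tested in sons of smoked WT sires, whose libraries had no part in choosing the members. All 350 members with 4 or more values in both groups were higher in F1 sperm than in F1 brain and called at an adjusted p below 0.05 by limma, against 28.2% of 52083 regions tested that were called higher in sperm. The median difference was 77.9 percentage points. Of these 350 members, 279 (79.7%) again passed both thresholds, with 322 above 80% in sperm and 304 below 20% in brain. In 348 of them the lowest sperm library lay above the highest brain library, against 18.3% of all regions. Without the brain library low at imprinted promoters, 349 of 350 were called, against 27.9% of 52078 regions called higher in sperm, the median difference was 76.9 points, 254 passed both thresholds and 348 did not overlap, against 18.6% of all regions.

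Control Nrf2-/- F0 sperm was compared with F1 brain of sons of control Nrf2-/- sires in the same way. All 387 members tested were called higher in control Nrf2-/- F0 sperm than in F1 brain of control Nrf2-/- sires by limma, against 32.6% of 66008 regions. The median difference was 76.1 points, and 284 members (73.4%) passed both thresholds again. In 382 the libraries did not overlap, against 21.4% of all regions. In this comparison tissue, generation, the mothers' strain and Nrf2 genotype cannot be told apart, since the sperm came from Nrf2-/- males and the brain from sons that were not homozygous, whereas sperm and brain of the sons shared generation and parents' strains. The other pairs of groups gave 429 of 433 members without overlap for smoked WT F0 sperm and smoked WT F1 brain (20.9% of all regions), 347 of 348 for smoked Nrf2-/- F0 sperm and brain of sons of smoked Nrf2-/- sires (21.3%) and 218 of 220 for control WT F1 sperm and smoked WT F1 brain (20.3%). Without the low brain libraries these were 429 of 433 (21.1%), 343 of 343 (23.9%) and 218 of 220 (20.5%).

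**Figure D3:**
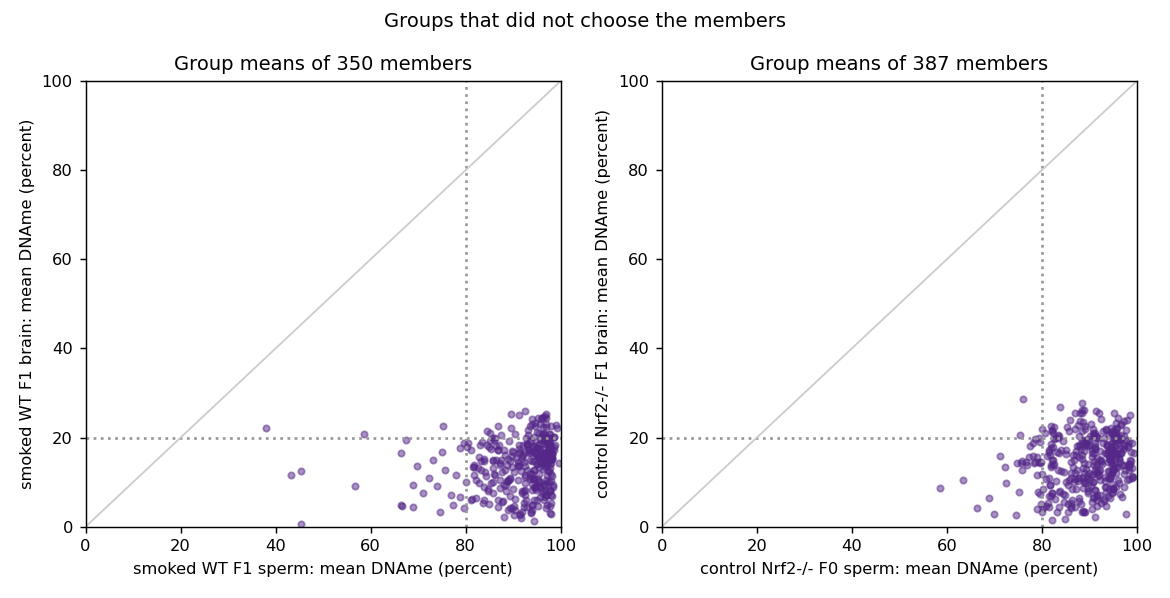
Each point is 1 member, plotted by its mean DNAme in percent in a sperm group (x axis) and a brain group (y axis) that did not choose it, with dotted lines at 80% and 20% and a line of equality. In sons of smoked WT sires 279 of 350 members, and for control Nrf2-/- F0 sperm against brain of sons of control Nrf2-/- sires 284 of 387, fall in the lower right corner, and all lie below the line of equality.

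The first Trio member shown above had the widest gap among members measured in all groups, 96.6% in control WT F0 sperm and 4.25% in control WT F1 brain. In sons of smoked WT sires its lowest, median and highest values were 85.4%, 89.3% and 97.0% in 6 sperm libraries and 2.71%, 4.66% and 6.93% in 8 brain libraries. Every sperm library was far above every brain library, and 348 of 350 members and 18.3% of all regions also had no overlap there. The difference of 85.6 points (SE 1.62) had an adjusted p of 4.63e-64 by limma. A second Trio member (chr15:27923702-27923765) had a low brain level in the group that chose the members, 0.789%, and ran from 0.371% to 2.29% in brain of sons of smoked WT sires. Its sperm values in those sons were 85.6%, 96.2% and 97.9% in 7 libraries. The other Trio members had brain means of 13.3% and 13.4% in those sons, so members of 1 gene differed in how far they were unmethylated.

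The other members with the widest gaps were as clearly split in sons of smoked WT sires. At Pitpnm2, sperm ran from 96.2% to 100% in 7 libraries and brain from 3.70% to 10.97% in 8. The region nearest to Mki67 ran from 95% to 100% in 4 sperm libraries and from 2.09% to 6.87% in 8 brain libraries, a difference of 94.5 points (SE 3.42). At Gch1, the first enzyme of tetrahydrobiopterin synthesis (chr14:47178201-47178331), they ran from 88.98% to 100% in 6 and from 1.34% to 12.3% in 8. No sperm library overlapped a brain library at these members, which held for 348 of all 350 members tested there and 18.3% of all regions. Smarcd1, which encodes a subunit of the BAF chromatin remodelling complex (chr15:99704374-99704583), had 17 positions at 11 CpGs and means of 96.7% ± 2.98 (SD, n = 6) and 6.72% ± 2.87 (n = 8). Osbpl7, of the oxysterol-binding protein family (chr11:97051102-97051193), was measured in 3 sperm libraries of those sons, at 91.7% to 100%, and was not tested, and its 8 brain values ran from 0% to 4.08%. Slc6a7, a proline transporter gene of the brain, is the nearest gene to an intergenic member that ran from 88.7% to 97.1% in 5 sperm libraries and from 2.81% to 14.4% in 8 brain libraries. A member in an intron of Pctp, a phosphatidylcholine transfer protein gene (chr11:89989029-89989118), was at 94.8% in the 1 sperm library of those sons that measured it and at 1.22% to 8.21% in 8 brain libraries. The member with most positions after those of Bmp7 and Smarcd1, 15 of them in a coding exon of Nfic, a nuclear factor I gene (chr10:81407627-81407807), was measured in no sperm library of those sons, and its brain values ran from 2.92% to 19.1%.

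Neuronal genes held further members. At Rbfox1, sperm of sons of smoked WT sires ran from 89.9% to 100% with a median of 99.4% in 7 libraries, and brain from 1.17% to 4.09% with a median of 3.03% in 8. At 1 of the 3 members of Cacna1a, the P/Q-type calcium channel gene (chr8:84592109-84592193), sperm ran from 87.0% to 97.4% in 4 libraries and brain from 0.490% to 7.29%. At another (chr8:84554303-84554395), sperm ran from 88.3% to 100% in 4 libraries and brain from 4.58% to 14.6% in 8, a difference of 83.4 points. At Shank2, a scaffold gene of the postsynaptic density (chr7:144239014-144239177), sperm ran from 93.7% to 100% in 5 libraries and brain from 5.77% to 19%. No sperm library overlapped a brain library at these 4 members, as at 348 of all 350 members tested there and 18.3% of all regions. Of the 2 members of Bcl11b, 1 (chr12:107950938-107951156) ran from 84.1% to 96.3% in 5 sperm libraries and from 9.88% to 22.2% in 8 brain libraries, a difference of 76.3 points (limma adjusted p = 5.89e-43). The other had a brain mean of 10.7% and was measured in only 1 sperm library, so it was not tested. Foxp1, which encodes a forkhead factor, had a member (chr6:99485122-99485268) at 94.1% ± 3.25 (SD, n = 7) in sperm and 3.87% ± 1.06 (n = 8) in brain of those sons, a difference of 90.2 points (limma adjusted p = 2.44e-51).

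Members at glial genes were also high in sperm and low in brain. At Mbp, sperm of sons of smoked WT sires had a mean of 91.0% ± 10.85 (n = 6) and brain 13.8% ± 3.47 (n = 8). At Slc4a4 the means were 88.7% ± 2.14 (n = 5) and 10.3% ± 5.75 (n = 8). Aldh1l1, a folate enzyme gene used as an astrocyte marker, had a member (chr6:90506902-90506957) with brain values of 19.1% to 28.1% in those sons, above the 20% threshold in 7 of 8 libraries. Only 2 sperm libraries of those sons measured it, at 83.4% and 92.8%, so it was not tested. A brain sample mixes neurons and glia, and a level between the extremes cannot be told apart from a share of cells that are fully methylated.

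Gse1 and Tcf4 held the most members. The 6 Gse1 members had brain means of 3.86% to 20.0% in sons of smoked WT sires. The 4 of them tested had sperm minus brain differences of 66.01 to 86.7 points. The 5 Tcf4 members had brain means of 8.51% to 20.97% in the same sons, and single libraries varied widely there. At the Tcf4 member 441 bp from a transcript start, brain values had a lowest of 7.32%, a median of 16.95% and a highest of 54.0%, while 5 sperm libraries ran from 94.1% to 96.9%.

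The centres of 29 members lay within 1 kb of a protein-coding transcript start (6.16%, against 30.8% of all regions and 1.19% of those methylated in both). The 10 with the widest gaps were at Osbpl7, Mast4, Ppp2r5c, Rusc2, Fam196b, Rabgef1, Ltbp1, Rufy3, Irf7 and R3hdm2. At Rufy3, an endosomal adaptor of axons, the centre lay 3 bp from a start (chr5:88583474-88583592). Its sperm values in sons of smoked WT sires were 95.1% to 100% in 4 libraries, and its brain values were 2.09% to 11.4% in 8. At Irf7, an interferon response factor (chr7:141266132-141266250), they were 84.6% to 100% in 4 and 0.658% to 6.63% in 8. At Ltbp1, which encodes a binding protein of latent TGF-beta (chr17:75178768-75178873), they were 93.8% to 100% in 6 and 4.86% to 14.6% in 8. Mast4, a kinase gene (chr13:102957976-102958147), and Fam196b (chr11:34315157-34315263) had lower F1 sperm means, 81.0% ± 4.31 and 82.1% ± 7.45 (n = 7 each), than smoked WT F0 sperm, 92.8% ± 5.11 and 94.4% ± 1.33 (n = 9 each). Of these 10 promoters, 7 had enough values for the test in sons and all 7 were called higher in sperm, against 28.2% of all regions. Over regions methylated in both tissues, smoked WT F1 sperm libraries had means of 87.3% to 93.7% and control WT F1 sperm libraries of 79.3% to 92.9%, against 92.1% to 95.4% in smoked WT F0 sperm, and the part of this shift in the F1 sperm values of members was not tested. Members were chosen by a high level in control WT F0 sperm, so lower F1 sperm values were also in part fixed by that choice.

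A few members were below 50% in both F1 sperm groups. Of 209 members with 4 or more values in both F1 sperm groups, 4 were below 50% in both, whereas none of 433 was below 50% in smoked WT F0 sperm. These 4, singled out after their values were seen, were near Cebpe (chr14:54714155-54714314) and in introns of Lrrc27 (chr7:139234222-139234297), Piwil4 (chr9:14699211-14699337) and Alcam (chr16:52353394-52353458). Near Cebpe, a gene of granulocyte maturation, means were 45.4% in both F1 sperm groups, 79.2% to 85.2% in the 7 F0 sperm groups and 0.637% to 1.43% in the 4 brain groups. At Piwil4, a gene of the piRNA pathway in germ cells, F1 sperm means were 29.0% and 45.4%, and F0 sperm means were 72.3% to 80.8%. At Lrrc27 they were 47.5% and 43.2%, against 81.4% to 90.6%. At Alcam, a cell adhesion gene, they were 25.03% and 38.1%, against 78.5% to 90.3%, and its brain means were 20.0% to 25.2%. Single Alcam libraries ran down to 4.35% in F1 sperm of sons of control sires and to 27.8% in smoked WT F0 sperm. The Alcam member had the smallest difference between sperm and brain in sons of smoked WT sires, 16.0 points (SE 6.84, limma adjusted p = 0.0392), and this call was lost without any 1 of 6 libraries (smoked WT F1 brain columns 2, 6, 7 and 8 and smoked WT F1 sperm columns 2 and 3), with adjusted p from 0.0554 to 0.202, and under 3 alternatives (0.0588 to 0.122). F1 sperm and F0 sperm differ both in generation and in the CAST/EiJ mothers, and these cannot be told apart.

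The rule chose the inside of members to be low in brain and did not choose the positions around them, so a higher brain level outside was in part fixed by that choice and is given as a description. Members were set beside their own surroundings in smoked WT F0 sperm and smoked WT F1 brain, at candidate positions outside the region. In brain the median was 14.4% inside members, 19.02% at 100 to 200 bp outside (59 members with a position there), 26.6% at 300 to 500 bp (51) 53.0% at 500 to 750 bp (53) and 40.98% at 750 to 1000 bp (60), over different members at each distance. In sperm the same distances gave 92.7%, 92.0%, 89.6%, 92.2% and 91.1%, with a lower quartile of 44.97% at 750 to 1000 bp. Around regions methylated in both tissues, brain medians stayed between 86.4% and 89.5% over these distances outside the region. Beyond 1 kb both tissues were mixed around members, with a lower quartile of 2.09% in sperm and 4.78% in brain at 1000 to 1500 bp (81 and 82 members).

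**Figure D4:**
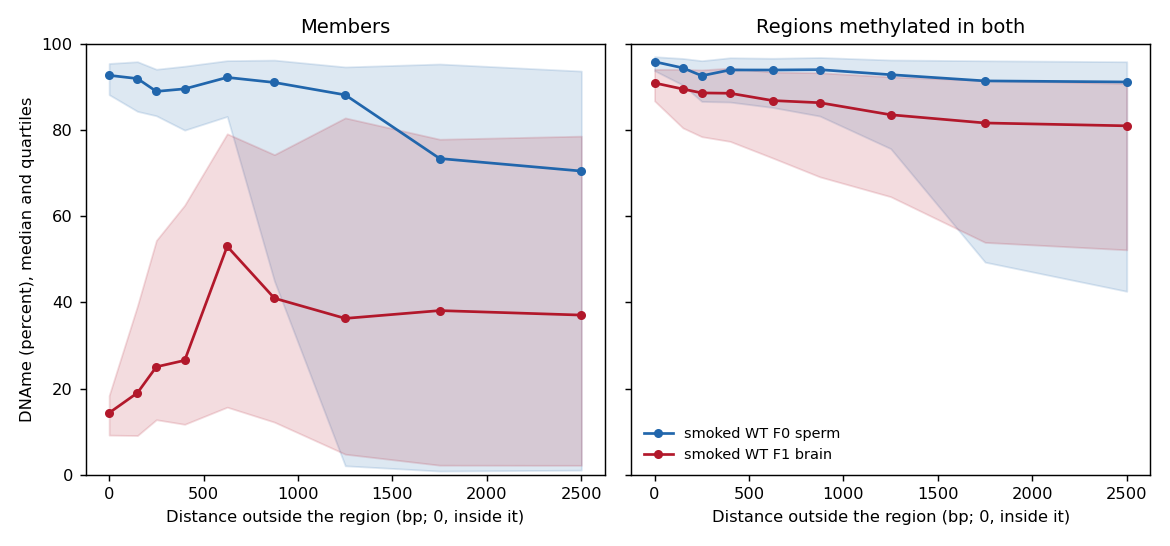
Lines give the median DNAme, in percent, and shading the quartiles over regions, by distance outside the region in bp (0 is inside it), for smoked WT F0 sperm and smoked WT F1 brain, at members (left) and regions methylated in both tissues (right). Brain medians at members rise from 14.4% inside to 53.0% at 500 to 750 bp and are 40.98% at 750 to 1000 bp. Sperm medians are 89.0% or above up to 1000 bp, with a lower quartile of 44.97% at 750 to 1000 bp.

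In smoked males, DNAme at 2 members was lower in Nrf2-/- than in WT sperm. Of 345 members tested between smoked Nrf2-/- and smoked WT F0 sperm, 2 (0.580%) were called by limma, both lower in Nrf2-/-, against 0.406% of 64100 regions called in either direction and 0.167% called lower. The median member differed by -1.72 points, against 0.00 over all regions and -0.03 over those methylated in both, and 71.9% of members were lower in Nrf2-/- against 49.8% of all regions and 50.8% of those methylated in both. At an unadjusted p under 0.05, 24 members (6.96%) passed, against 7.3% of all regions, so the share of members called was near the background. Members were chosen by a high level in control WT F0 sperm, so lower values in Nrf2-/- sperm were in part fixed by that choice. Other settings called up to 3 members. With limma array weights they were the Clk3 member below, 1 intergenic member and 1 at Dagla, all lower in Nrf2-/- (0.52% of all regions called). The intergenic one was nearest to the coding start of Chd6, a chromatin remodeller gene, and Dagla is a gene of endocannabinoid synthesis. A fit that also held control WT F0 sperm called Chd6, Tfap2c and Clk3 (0.421%). That group chose the members, so nothing is concluded from that fit. With a plain mean over positions, the calls were Tfap2c, Clk3 and a member in an intron of the tetraspanin gene Tspan5 (chr3:138745012-138745221) (0.395% of all regions called). The Tspan5 member was higher in Nrf2-/- by 8.02 points (limma adjusted p = 0.0477). The Tspan5 member was also called without smoked Nrf2-/- F0 sperm column 6 and without smoked WT F0 sperm column 5. It had means of 92.2% ± 2.10 (n = 5) in smoked Nrf2-/- and 84.3% ± 2.77 (n = 6) in smoked WT F0 sperm. These 3 genes, Chd6, Dagla and Tspan5, were named after their values were seen.

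One of the 2 lies in a coding exon of Tfap2c, which encodes transcription factor AP-2 gamma (chr2:172553425-172553543). Its lowest, median and highest values were 63.4%, 75.8% and 97.3% in 9 smoked Nrf2-/- libraries and 87.7%, 92.4% and 98.4% in 9 smoked WT libraries. In control Nrf2-/- sperm they were 66.3%, 71.7% and 100% in 10 libraries, and in control WT sperm, which chose the members, 89.9%, 94.99% and 98.3%. At the 80% threshold of the rule, 6 of 9 smoked and 8 of 10 control Nrf2-/- libraries lay below it. No library of the smoked or recovery WT F0 sperm groups did. Control WT F0 sperm is left out of this count because it chose the member. Leaving it out does not undo that choice, since a mean above 80% in WT sperm was required of every member. The direction of this split was therefore in part fixed, and nothing is concluded from it. The share of all regions split in this way was not counted. The smoked difference was -14.5 points (SE 3.36, adjusted p = 0.0232 by limma). It lost its call without any 1 of 6 libraries (adjusted p 0.0509 to 0.0811) and under 3 alternatives (0.0642 to 0.408). In brain of sons of control Nrf2-/- sires it was at 12.8% ± 2.15 (n = 8), and of smoked WT sires at 12.2% ± 4.50 (n = 8).

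The other is the intronic Clk3 member. It was measured in 5 smoked Nrf2-/- libraries, at 33.0%, 46.1%, 66.7%, 70.8% and 74.4%, and in 5 smoked WT libraries, at 81.2%, 95.5%, 95.6%, 97.5% and 100%. These groups did not overlap, and the difference was -35.8 points (SE 6.48, adjusted p = 0.00460 by limma). The share of all regions without overlap between these 2 groups was not counted. The 5 control Nrf2-/- libraries that measured it were at 58.1%, 86.1%, 87.3%, 87.3% and 95.6%. The call held without any 1 library (adjusted p 0.00187 to 0.0205) and was lost when only the groups compared were fitted (0.217). All Nrf2-/- libraries, of F0 sperm and of F1 brain alike, carry lower facility numbers in the table headings than the WT libraries of that tissue, and what these numbers stand for is not given, so genotype and any batch they mark cannot be told apart.

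No member passed the test for smoke in Nrf2-/- males. Of 334 members tested between smoked and control Nrf2-/- F0 sperm, 0 were called by limma, against 0% of 63362 regions, and 24 had an unadjusted p under 0.05 (7.19%, against 5.87% of all regions). The median difference was -0.83 points, with the 5th and 95th percentiles of members at -8.61 and 6.98. Smoked and control WT F0 sperm had member means of 90.7% ± 2.42 (SD, n = 9) and 91.7% ± 2.79 (SD, n = 10), given without a test because the control group chose the members.

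No member passed the test in the recovery groups. Against smoked WT F0 sperm, limma called 0 of 388 members in recovery 1 (0% of 66216 regions), 0 of 428 in recovery 2 (0.00147% of 68244) and 0 of 338 in recovery 3 (0.0354% of 65015). Members with an unadjusted p under 0.05 numbered 18 (4.64%, against 4.92% of all regions), 14 (3.27% against 3.45%) and 29 (8.58% against 6.88%). Median differences were -0.47, 0.38 and 1.55 points, against 0.08, 0.03 and 0.15 over all regions. In recovery 3, 30.5% of members were lower than in smoked WT sperm, against 40.9% of all regions and 32.1% of those methylated in both, over which the median was 0.57 points, so the share of members was near that of regions methylated in both. On the log2 ratio scale 1 of 338 members was called in recovery 3 (limma adjusted p = 0.00434), against 0.0215% of 65015 regions, chosen for mention after its values were seen, in an intron of Klf9, a glucocorticoid-responsive zinc finger gene (chr19:23159714-23159857). All 5 recovery 3 libraries were at 100% there, and 6 smoked WT libraries had a lowest of 78.4%, a median of 88.6% and a highest of 95.03%. The older age and the time since exposure of the recovery groups cannot be told apart.

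No member passed the test for paternal smoke in sperm of sons of WT sires or in brain of sons of Nrf2-/- sires. Brain of sons of WT sires was not tested for paternal smoke, because its control group chose the members. In F1 sperm, 0 of 209 members were called by limma between sons of smoked and control WT sires (0% of 31948 regions), 11 had an unadjusted p under 0.05 (5.26%, against 5.4% of all regions), and the median difference was 0.08 points. In F1 brain of Nrf2-/- sires, 0 of 470 members were called between smoked and control sires (0% of 68810 regions). Here 64 members (13.6%) had an unadjusted p under 0.05, against 7.83% of all regions, and 376 (80%) were lower with smoke against 64.3% of all regions and 60.6% of those methylated in both. The median difference was -2.03 points, against -0.28 over all regions. Without the brain libraries low at imprinted promoters, which were 4 of the 8 smoked ones, 20 of 460 members (4.35%) had an unadjusted p under 0.05, against 4.16% of 66044 regions, and limma called 0 members and 1 region. The share of members was then near the background. The median difference was -0.90 points, against -0.14 over all regions.

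Brain of sons of smoked Nrf2-/- sires was also set against that of sons of smoked WT sires. Of 471 members, 0 were called by limma, against 0.0145% of 68852 regions, and 60 (12.7%) had an unadjusted p under 0.05, against 11% of all regions. The median difference was -1.30 points, against -0.16 over all regions and -0.90 over those methylated in both. Without the 5 low libraries the median difference was -0.67 points, against -0.008 over all regions. Then 31 of 461 members (6.72%) had an unadjusted p under 0.05, against 6.51% of 66050 regions. Limma called 0 members, against 0.00757% of these regions. Without smoked WT F1 brain column 8 alone, with the 4 low libraries of Nrf2-/- sires still in the fit, 2 of 471 members were called (limma adjusted p = 0.0486 and 0.0435), against 0.221% of 68817 regions, both lower in sons of Nrf2-/- sires and named after their values were seen, in introns of Rnf150 (chr8:83049516-83049646) and Arhgap26, a GTPase activating protein gene. At Rnf150 the means over all libraries were 10.8% ± 3.23 and 18.8% ± 7.33 (n = 8 each), and at Arhgap26 12.9% ± 3.71 and 21.8% ± 8.10 (n = 8 each). Mean DNAme over members was 13.9% ± 2.61 (n = 8) for smoked WT and 12.1% ± 1.90 (n = 8) for smoked Nrf2-/- sires, and without the 5 low libraries 14.6% ± 1.63 (n = 7) and 13.6% ± 1.16 (n = 4). Their part in the brain differences was not otherwise tested.

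In sperm, the members with the lowest control WT F0 means were in introns of Gramd1b (80.2%) and Alcam (80.3%), and the regions left out with the highest were at Klhdc8b (79.98%) and near Cebpe (79.6%). In brain, the members with the highest control WT F1 means were near Itga1 (19.997%) and at Alcam (19.996%), and the regions left out with the lowest were near Gm10135 (20.02%) and at Mvb12b (20.05%).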

How the data were processed

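RRBS libraries from 80 sperm and 32 brain samples of 13 groups were analysed. The deposited tables hold, for each CpG position and library, the percent of reads methylated, computed by the authors from bisulfite alignments. The submitters' processing notes name Bismark and mm10, while the version of Bismark is not given in the sources used here. The study's methods scored CpGs only above a read minimum in enough replicates, and whether the deposited tables were filtered in that way is not stated. Read counts were not used, the depth behind each percent is unknown, and no interval or floor could be given. Positions were checked against mm10, and all were CpGs.

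A library's value of a region was its mean over positions, adjusted for which positions it measured, and needed a value at 50% of them. Groups were compared by limma (version 3.58.1, R 4.3.3) on the percent scale over all regions with 4 or more libraries in both groups, with Benjamini-Hochberg adjustment and a threshold of 0.05. The tissue fit held the 11 groups that did not choose members, the F0 sperm fit 6 of these and the brain fit 3, and F1 sperm was fitted alone. The method was tested on simulated data. Annotation and sequence came from the mm10 reference, with GC content, CpGs and motifs counted in Python 3.11.15. Alternatives were another scale, weights, samples in the fit, joining distance, position minimum and thresholds, and each library left out in turn. Leaving out the brain libraries below 20% at imprinted promoters was chosen after seeing the data.

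The members, gene lists and motifs were chosen with earlier results of these data known. Named members were the 10 with the widest gaps measured in all groups, those of the 3 genes with most members, up to 10 near coding starts, up to 4 for each gene list, those called, those with most positions and those at the thresholds. No sequence from chromosome 18 is shown. Others are said to have been named after their values were seen. Libraries were grouped by table, since their column headings carry facility numbers that match no label, so columns are numbered only in table order. Whether samples of a group came from separate animals was taken from the study's design. The p-values measure the spread between samples within all groups of a fit, not only the groups compared. Whether sons of a group shared a sire or litter is not stated, so the spread between sires was not measured.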

Additional observations from a re-analysis of the deposited data

Results flagged for a closer look

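In 30 groups of values that were tested, 5 had a library far from the others of its group, where chance gives about 1 in 20. The lowest control WT F0 sperm library had a mean DNAme over members of 84.1%, in a group that chose the members. At the regions near starts of maternally methylated imprinted genes, 1 smoked WT F1 sperm library was at 5.50%. There 1 smoked Nrf2-/- F0 sperm library was at 2.30%, and each was the highest of its group. The lowest smoked WT F1 brain library there was at 12.8%, and the same library had the lowest member mean of all brain libraries, 8.61%. At the Clk3 member, 1 smoked WT F0 sperm library was at 81.2%, below the other 4, and still above all 5 smoked Nrf2-/- libraries. The causes were not tested.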

How the results depend on the processing

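The number of members was 187 with a joining distance of 50 bp, 293 with at least 6 values per position, 254 with thresholds of 85 and 15 and 788 with 75 and 25. With values at 80% of positions, fewer members could be tested, and 220 of 220 were called between sperm and brain in sons of smoked WT sires (34.1% of all regions called higher in sperm), 247 of 247 between control Nrf2-/- F0 sperm and brain of sons of those sires (34.8%) and 1 of 218 for Nrf2 loss (0.5% of all regions). For Nrf2 loss 1 of 345 members was called on the log2 ratio scale (0.275% of all regions) and 0 of 345 (0.225%) when limma was fitted to the groups compared alone. In recovery 3, 1 of 338 was called on the log2 ratio scale (0.0215%). Promoters within 500 bp held 6.58% of members. With each library left out in turn, 280 to 350 members were called between tissues in sons, where 281 to 350 could be tested and at most 1 was not called (27.6% to 31.8% of all regions called higher in sperm). Between control Nrf2-/- F0 sperm and brain of sons of those sires 348 to 387 were called, all that could be tested (31.8% to 32.6%). The counts were 1 to 3 for Nrf2 loss (0.327% to 0.423% of all regions) and 0 to 2 for smoked Nrf2-/- against smoked WT sires in brain (0.00728% to 0.221%). They were 0 in every fit of the other comparisons, where 0% to 0.037% of all regions were called. Changes of direction were recorded only for named members, in the tissue comparisons and for Tfap2c and Clk3 in Nrf2 loss. None of these changed direction, though the rule had chosen the direction of the tissue difference. No paired analysis was possible because the columns carry no replicate numbers. Depth per position is unknown, and F1 sperm had the fewest members measured, which limits those tests.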

Other observations

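Among the 5 members with the smallest difference between sperm and brain in sons of smoked WT sires, named after their values were seen, 1 lay 19432 bp from the start of Rasl11b, which encodes a small GTPase of the Ras family (chr5:74175788-74175920). Its F1 sperm values in those sons were 39.4% to 74.7% with a median of 59.7% in 5 libraries, against 85.2% to 97.9% in 8 smoked WT F0 sperm libraries. A member near Dbx1, a homeobox gene of neural progenitors (chr7:49678068-49678246), had a mean of 47.1% (11.7% to 82.5%) in 6 F1 sperm libraries of sons of control sires and 69.0% (37.8% to 95.3%) in 6 of sons of smoked sires, against 91.2% in control WT F0 sperm. Generation and the mothers' strain cannot be told apart in these values. Control WT F0 sperm chose the members by a high level, so lower F1 sperm values were in part fixed by that choice.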
